A study of Rattus rattus with 24 samples.

Results

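The ERK feedback genes described here are a set of 9 named genes that dampen or read out signalling through the ERK kinases: the Sprouty genes Spry1, Spry2 and Spry4, the Sprouty-related genes Spred1 and Spred2, the MAP kinase phosphatase genes Dusp4 and Dusp6, and the ETS transcription factor genes Etv4 and Etv5. They were chosen by symbol, and a gene was read from the probe sets (groups of short probes against one transcript) that the array annotation gives to that gene alone. Such probe sets were found for 7 of the 9 genes, out of 14217 genes that had one. There were 11 of them in all, 3 for Dusp6, 2 each for Etv4 and Etv5 and 1 for each other gene. Spred1 and Spred2 are not reported here. For a gene with more than 1 of them, values are those of the probe set that was brightest on average over the arrays, unless another is named.

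The cells were oligodendrocyte precursor cells (OPCs), the glial progenitors that mature into myelin-forming oligodendrocytes. They were taken from the cortex of rat pups 4 to 7 days old, selected with beads against the surface marker A2B5 and expanded with platelet-derived growth factor before treatment. The submitters give the organism as Rattus rattus, and the study's methods name Sprague Dawley rats. The treatments were vehicle (control, 0.1% DMSO by the study's methods), 45 nM thyroid hormone (T3), 1 µM quetiapine, an atypical antipsychotic, or both compounds at those doses (the combination). Every group, control included, was kept in the same OPC medium, whose B27 supplement holds a small amount of T3. RNA was taken at day 2 (48 hours) and day 4 (96 hours), with fresh medium and treatment added at day 2. Each of the 8 groups has 3 arrays, numbered by biological replicate, and each replicate gave a sample of every group, so that arrays of the same number are paired.

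ERK is the last kinase of a relay that runs from growth factor receptors through Ras, Raf and MEK. Active ERK switches on genes whose products slow the same relay, and their transcripts are widely used as a readout of how strongly it runs. Sprouty and Spred proteins act between the receptor and Raf, the Dusp4 and Dusp6 proteins remove phosphate from ERK in the nucleus and the cytoplasm respectively, and Etv4 and Etv5 are transcription factors induced by fibroblast growth factor and other receptor signals. In OPCs, platelet-derived growth factor signals partly through this relay to keep the cells dividing. Transcript levels alone do not show how much ERK is phosphorylated, which was not analysed here.

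All values are log2 expression, so that a difference of 1 is a change of 2-fold. Arrays of the same group correlated at 0.986 to 0.996 over all probe sets, and the array medians lay between 6.43 and 6.51. A probe set was called where limma gave a p adjusted over all 31042 probe sets under 0.05. The unblocked fit had no term for the replicate. Because the replicates are paired, the same fit with the replicate as a block is given for the 7 genes wherever it changes a call. For the lists of other pathway genes it is given for the counts against control at 96 hours. The precursor marker Pdgfra, the receptor for platelet-derived growth factor, was high in every group, at 12.6 ± 0.08 (SD, n = 3) in control at 48 hours. The astrocyte marker Gfap was also high, at 13.5 ± 0.27 in control at 96 hours. The mean log2 level of the 9 astrocyte markers measured ran from 10.1 to 11.7 over the 24 arrays, and that of 8 neuron markers from 7.75 to 8.31. That of 10 microglia markers ran from 5.03 to 6.60, with the highest in control replicate 2 at 48 hours, and that of 10 vascular and fibroblast markers from 4.58 to 4.79. Since these are bulk samples, fewer cells of a type and less RNA per cell cannot be told apart.

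Spry1, Spry2, Spry4, Dusp6, Etv4 and Etv5 all had their lowest mean level at 96 hours in cultures that had received T3, alone or with quetiapine. Their highest mean was at 48 hours, in control cultures for Spry2 and Etv5 and in quetiapine cultures for Spry1, Spry4, Dusp6 and Etv4. Dusp4 ran the other way, with its highest mean in the combination at 96 hours and its lowest in control at 96 hours. The group means spanned 1.99 for Etv5, 1.42 for Dusp6, 1.18 for Spry1, 0.98 for Spry4, 0.79 for Spry2, 0.61 for Etv4 and 0.35 for Dusp4. Most neighbouring groups in each order overlapped: a gap between the 3 values of one group and those of the next was found once for Etv5, between the combination at 48 hours and T3 at 96 hours, and once for Spry2, between T3 at 48 and at 96 hours. Dusp4 was the dimmest of the genes, with a mean of 5.72, at percentile 25.6 of all genes measured, and Spry2 the brightest, with a mean of 9.55. These last values are array signals of different probe sets and do not rank the genes by transcript number.

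**Figure D1:**
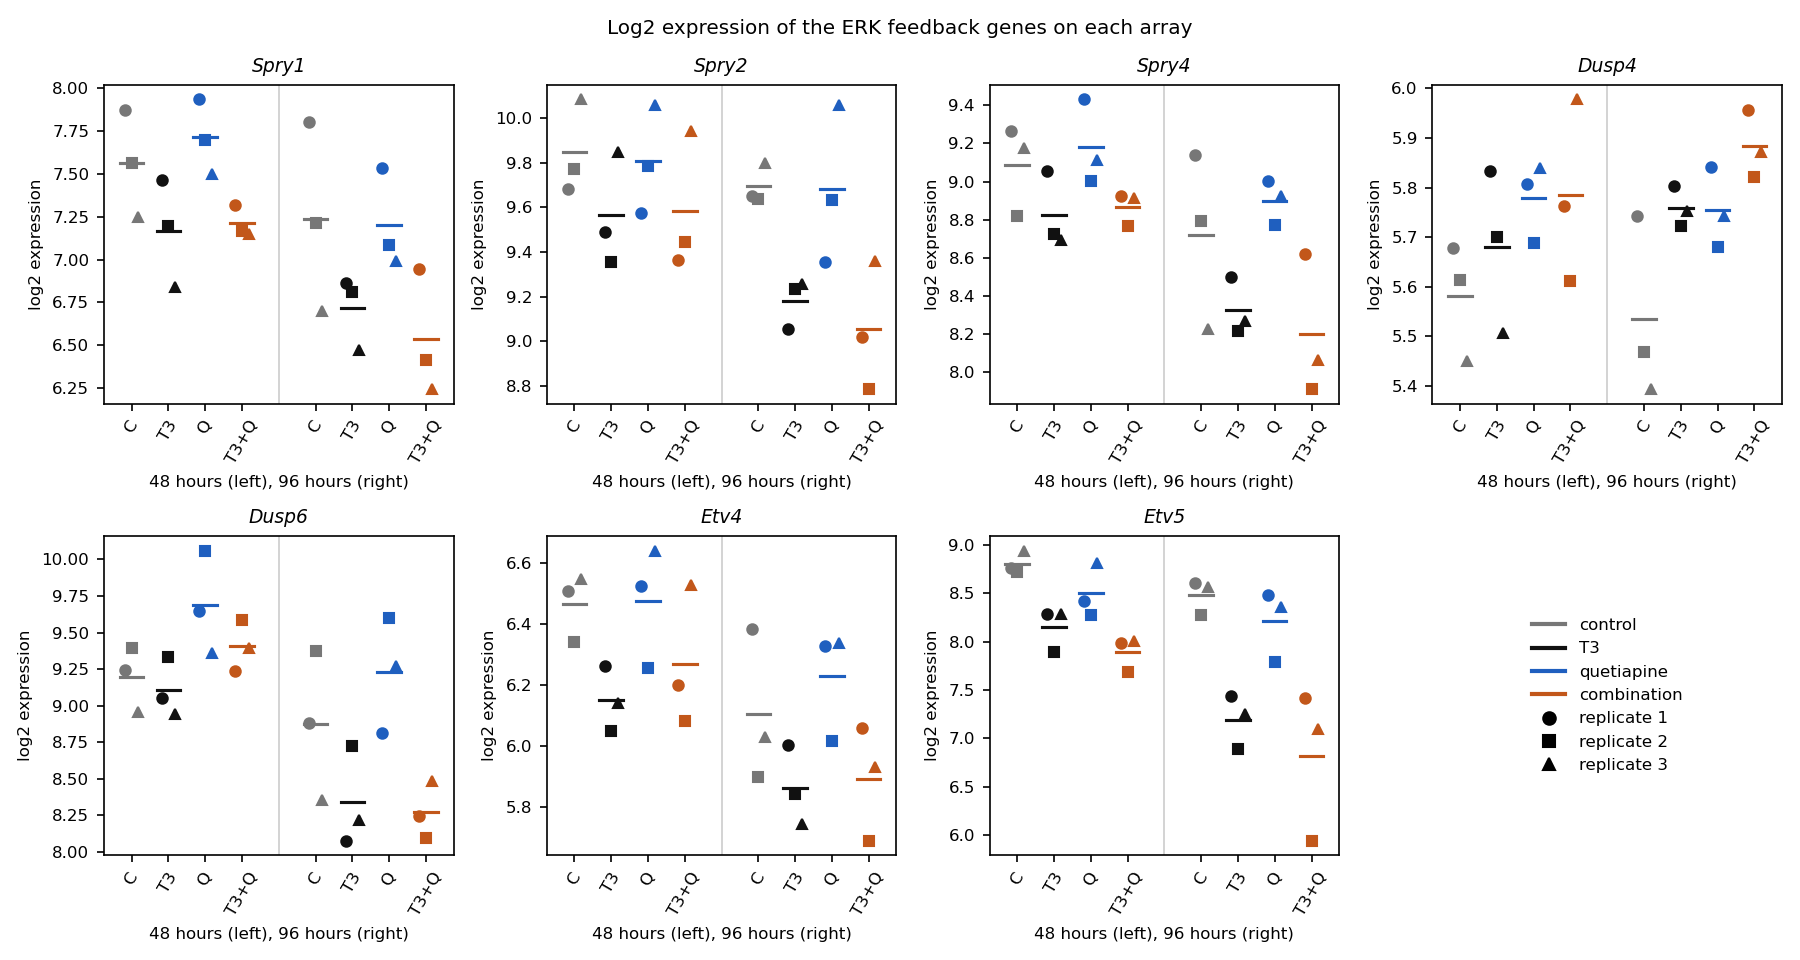
Log2 expression of the 7 ERK feedback genes on each of the 24 arrays, one panel per gene, with control (C), T3, quetiapine (Q) and the combination (T3+Q) at 48 hours on the left of the grey line and at 96 hours on the right. Symbols give the replicate and bars the group mean of 3 arrays; Etv5 falls from 8.81 in control at 48 hours to 6.82 in the combination at 96 hours, while Dusp4 stays between 5.53 and 5.88.

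The Sprouty genes encode membrane-associated inhibitors that block receptor signalling upstream of Raf. At 96 hours Spry2 read 9.65, 9.64 and 9.80 in control replicates 1 to 3, 9.05, 9.24 and 9.26 with T3, 9.36, 9.63 and 10.1 with quetiapine, and 9.02, 8.79 and 9.36 with the combination. All T3 and combination values were below all control values, while the quetiapine values straddled control. Spry2 fell by 0.64 ± 0.17 with the combination (SE; limma adjusted p = 0.0175), and its change with T3 was -0.51 (adjusted p = 0.0873; 0.0116 with the replicate block). The call for the combination was lost without combination replicate 2 (adjusted p = 0.0762) or control replicate 3 (adjusted p = 0.0620).

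Spry1 at 96 hours read 7.80, 7.21 and 6.70 in control, 6.87, 6.81 and 6.47 with T3, 7.53, 7.09 and 6.99 with quetiapine, and 6.94, 6.41 and 6.24 with the combination. The replicates were far apart within each group, and replicate 1 was the highest of each, so that control and T3 overlapped although T3 was lower within each of the 3 replicates. The change with T3 was -0.52 and that with the combination -0.70, with adjusted p of 0.257 and 0.0710 in the unblocked fit and 0.0122 and 0.00114 with the replicate block, under which Spry1 fell with both. Single control arrays weighed heavily here: without control replicate 1 the changes were -0.24 and -0.42, and without control replicate 3 they were -0.79 and -0.97. At 48 hours Spry1 was already lower with T3 in all 3 replicates, with changes of -0.41, -0.37 and -0.41, a fall under the block (adjusted p = 0.0156) that the unblocked fit did not call (0.411). The mean change there was -0.24 without control replicate 1 and -0.23 without T3 replicate 3.

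Spry4 at 96 hours read 9.14, 8.79 and 8.23 in control, 8.50, 8.22 and 8.27 with T3, 9.01, 8.77 and 8.93 with quetiapine, and 8.62, 7.91 and 8.07 with the combination. Control replicate 3 lay near the T3 values and apart from the other control arrays. The change with the combination was -0.52 (adjusted p = 0.106, and 0.0190 with the replicate block). In the unblocked fit it ranged from -0.77 to -0.31 when 1 array was left out, with adjusted p from 0.0189 without control replicate 3 to 0.340 without control replicate 1.

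The phosphatase genes Dusp4 and Dusp6 had changes of opposite sign at 96 hours under T3, alone or in the combination. Dusp6, whose product acts on ERK with high selectivity, read 9.24, 9.39 and 8.95 in control at 48 hours, 9.05, 9.33 and 8.94 with T3, 9.65, 10.1 and 9.36 with quetiapine, and 9.24, 9.59 and 9.40 with the combination. Quetiapine was above control in each replicate, by 0.41, 0.67 and 0.41, with a mean change of 0.49 ± 0.18 that was called only under the replicate block (adjusted p = 0.0228, against 0.531 in the unblocked fit) and was 0.31 without quetiapine replicate 2. At 96 hours Dusp6 read 8.88, 9.38 and 8.36 in control, 8.08, 8.73 and 8.22 with T3, 8.82, 9.60 and 9.27 with quetiapine, and 8.24, 8.09 and 8.49 with the combination. Each treatment overlapped control. The changes were -0.53, 0.36 and -0.60 with T3, quetiapine and both compounds, none of them called in either fit. With 1 array left out the combination's change in Dusp6 ranged from -0.86 without control replicate 3, the 1 case of 12 that was called (adjusted p = 0.0369), to -0.35 without control replicate 2 (adjusted p = 0.364).

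Dusp4, an inducible nuclear phosphatase, was higher in each treated group than in control at 96 hours. Its values were 5.74, 5.47 and 5.39 in control, 5.80, 5.72 and 5.75 with T3, 5.84, 5.68 and 5.74 with quetiapine, and 5.96, 5.82 and 5.87 with the combination. The combination lay above all control values, and T3 and quetiapine overlapped the control range at control replicate 1 alone. Dusp4 rose with the combination by 0.35 ± 0.09 (adjusted p = 0.0158), a call lost without control replicate 2 or control replicate 3, with adjusted p of up to 0.0665. The rise was 1.27-fold, so that a fold limit of 1.5 ended the call. It rose with T3 by 0.22 under the replicate block alone (adjusted p = 0.0419, against 0.156). Near the dim end of the array such differences are small in absolute signal.

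Etv5 had the widest range of the genes. This ETS factor read 8.77, 8.72 and 8.94 in control at 48 hours, 8.29, 7.90 and 8.29 with T3, 8.43, 8.28 and 8.82 with quetiapine, and 7.98, 7.69 and 8.01 with the combination. T3 and combination values were all below control, and quetiapine overlapped control. Etv5 fell by 0.92 ± 0.15, or 1.89-fold, with the combination (adjusted p = 0.00782). This call was lost in the fit over all 24 arrays (adjusted p = 0.0540) and with the second Etv5 probe set, whose change was -0.15 (adjusted p = 0.345). The change of Etv5 with T3 was -0.65 (adjusted p = 0.0869; 0.00124 with the replicate block).

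By 96 hours Etv5 read 8.61, 8.28 and 8.57 in control, 7.44, 6.89 and 7.26 with T3, 8.49, 7.79 and 8.36 with quetiapine, and 7.42, 5.94 and 7.10 with the combination. The T3 and combination arrays again lay below every control array. Etv5 fell by 1.29 ± 0.32, or 2.44-fold, with T3 (adjusted p = 0.0265), and fell by 1.67 ± 0.32, or 3.17-fold, with the combination (adjusted p = 0.00285). The T3 call was lost in the unblocked fit without control replicate 1, control replicate 3, T3 replicate 2 or T3 replicate 3, with adjusted p of up to 0.109. The combination's call held without any one array, and without combination replicate 2, the lowest Etv5 value on any array, the change was -1.23. With quetiapine the change was -0.27, with a 95% confidence interval from -0.98 to 0.44, and it was not called in either fit.

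Etv4, a close relative of Etv5, varied less. It was also dim, with a mean of 6.18 over all arrays, at percentile 31.0 of all genes measured. At 48 hours it read 6.51, 6.34 and 6.55 in control, 6.26, 6.05 and 6.14 with T3, 6.53, 6.26 and 6.64 with quetiapine, and 6.20, 6.08 and 6.53 with the combination. T3 values lay below all control values, with a change of -0.32 that was called only under the replicate block (adjusted p = 0.0335, against 0.341). At 96 hours its group means were 6.10 in control and 5.86, 6.23 and 5.89 with T3, quetiapine and both compounds, and no treatment was called against control in either fit.

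**Figure D2:**
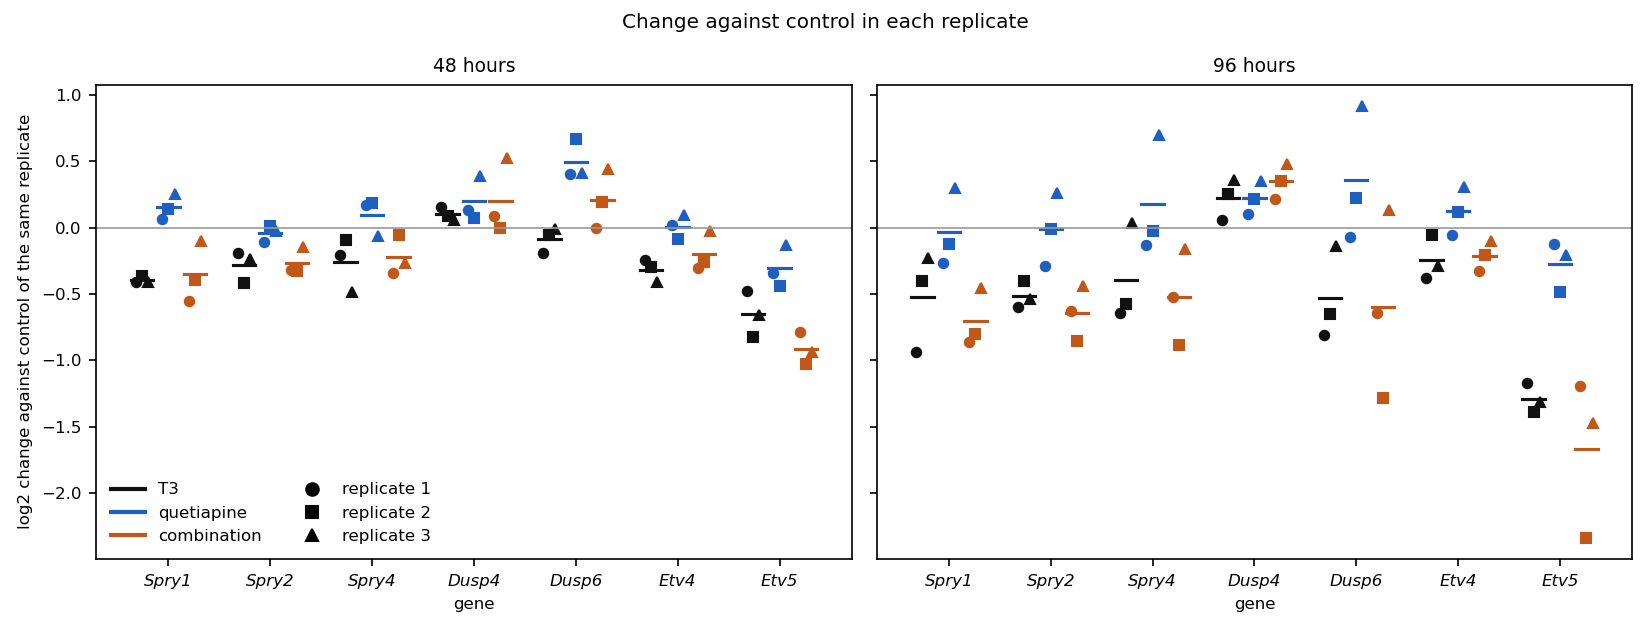
Log2 change against the control array of the same replicate (vertical axis) for each gene (horizontal axis) at 48 and at 96 hours, with symbols for the 3 replicates, colours for the treatments and short bars for the mean. Points for T3 and the combination lie below 0 in all 3 replicates for Spry1, Spry2, Etv4 and Etv5 at both times, and points for quetiapine lie on both sides of 0 at 96 hours for all genes but Dusp4 and Etv5.

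The probe sets of one gene differed for Etv5 and ran together for Dusp6. For Dusp6 the 3 probe sets gave changes with quetiapine at 48 hours of 0.49, 0.48 and 0.55, and with T3 at 96 hours of -0.53, -0.64 and -0.37. The dimmer Etv5 probe set, 1382122_at, changed by -0.07 with T3 and by -0.13 with the combination at 96 hours (adjusted p = 0.754 and 0.436), where the brighter one, 1383447_at, changed by -1.29 and -1.67. The values of 1382122_at lay between 6.23 and 6.87 on all 24 arrays. Every statement on Etv5 therefore rests on 1 of its 2 probe sets. The dimmer Etv4 probe set, 1380168_at, gave larger changes at 96 hours than the one that stood for the gene, at -0.40 with T3 and -0.36 with the combination, and both were called under the replicate block (adjusted p = 0.0445 and 0.0435).

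**Figure D3:**
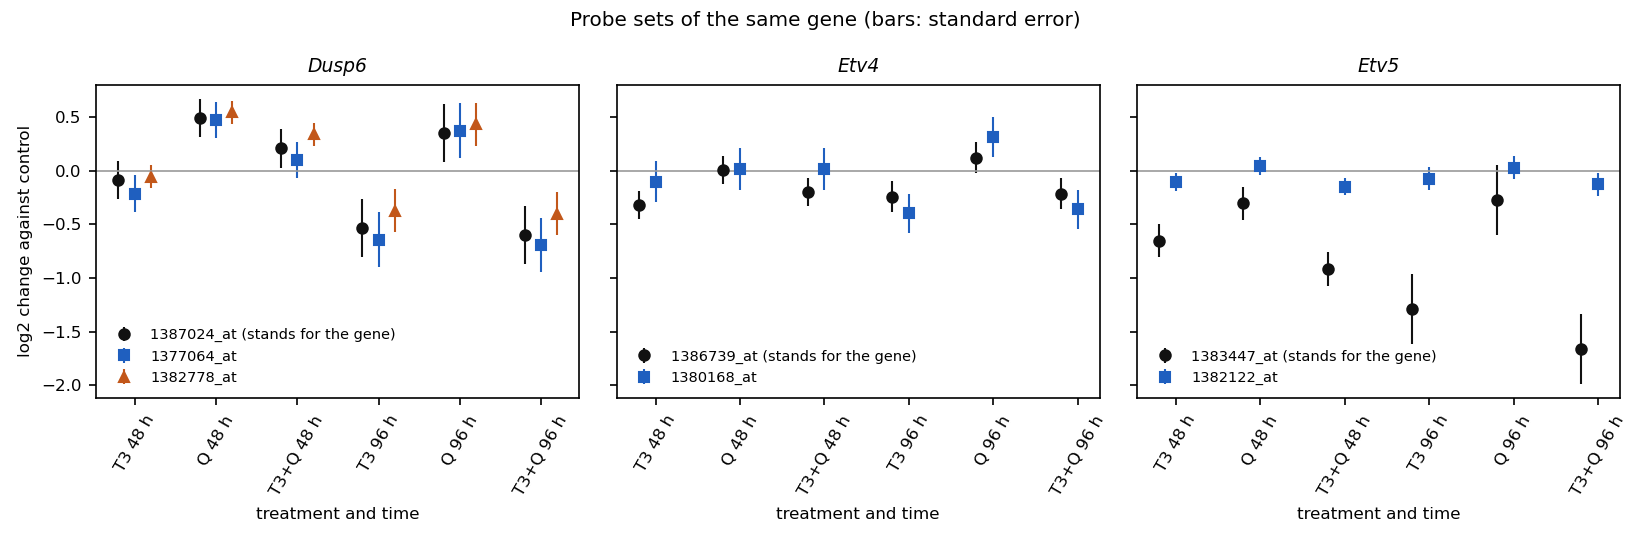
Log2 change against control (vertical axis, with standard error bars) of every probe set of Dusp6, Etv4 and Etv5 for each treatment and time (horizontal axis). The 3 Dusp6 probe sets move together, whereas the second Etv5 probe set stays close to 0 where the first reaches -1.67.

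Counted over the 7 genes, T3 lowered 1 gene, Etv5, and raised none at 96 hours, against 11.7% of all probe sets called in that comparison. With the replicate as a block 3 genes fell, Etv5, Spry1 and Spry2, and 1 rose, Dusp4, against 24.6% of all probe sets. At 48 hours limma called none of the 7 genes with T3, with 2 at an unadjusted p under 0.05, where 1.05% of probe sets were called. Under the block 4 genes fell, Etv5, Spry1, Spry2 and Etv4, against 10.1%, and the change in Spry2, -0.28, was -0.18 without T3 replicate 2 and -0.16 without control replicate 3. The median change with T3 over the 7 genes was -0.28 at 48 hours and -0.51 at 96 hours, beside -0.01 and -0.02 over all genes.

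The combination lowered 2 of the 7 genes at 96 hours, Etv5 and Spry2, and raised Dusp4, where 29.2% of all probe sets were called. With the block 4 fell, Etv5, Spry1, Spry2 and Spry4, and Dusp4 rose, against 40.6%. At 48 hours the combination lowered Etv5 alone, against 5.49% of probe sets called, and with the block Etv5, Spry1 and Spry2, against 21.7%. Of these the change in Spry1, -0.35, was -0.19 without control replicate 1, and that in Spry2, -0.26, ran from -0.14 without control replicate 3 and -0.15 without combination replicate 1 to -0.44 without combination replicate 3. The median change was -0.22 at 48 hours and -0.60 at 96 hours, beside 0.00 and -0.01 over all genes.

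Few of these genes were called with quetiapine alone against control. At 48 hours limma called none, with 1 at an unadjusted p under 0.05, where 0.116% of all probe sets were called, and under the block Dusp6 alone rose, against 3.58%. At 96 hours neither fit called any, with 1 at an unadjusted p under 0.05 in the unblocked fit, although 5.89% of all probe sets were called there and 17.2% under the block. The median change over the genes was 0.10 at 48 hours and 0.12 at 96 hours, beside -0.004 and -0.015 over all genes. The 3 treatments were compared with the same control arrays, so that their changes are not independent of one another.

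Set directly against each other, the single compounds gave levels of 6 of these genes that were called different at 96 hours with the replicate as a block. Without it the fit over the 12 arrays of that time called none, and the fit over all 24 arrays called Dusp6 and Etv5 (adjusted p = 0.0384 and 0.0332). At 96 hours Spry1, Spry2, Spry4, Dusp6, Etv4 and Etv5 all read higher with quetiapine than with T3 in each of the 3 replicates, and in each of the 6 the values of the groups did not overlap. Groups did not overlap for 21.7% of all probe sets, and 29.4% of all genes were higher with quetiapine in all 3 replicates. The differences ran from 0.37 for Etv4 to 0.89 for Dusp6 (1.85-fold) and 1.02 for Etv5 (2.03-fold). The difference for Dusp4 was -0.01, with a 95% confidence interval from -0.21 to 0.20.

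In the unblocked fit limma called none of the 7 genes between quetiapine and T3 at 96 hours, with 5 at an unadjusted p under 0.05 and adjusted p from 0.120 to 0.425 among the 6, where 2.63% of all probe sets were called. With the replicate as a block all 6 were called higher with quetiapine, with adjusted p from 0.00462 for Etv5 to 0.0364 for Spry4, against 11.7% of probe sets. The difference in Spry1, 0.49, was 0.32 without quetiapine replicate 1, and that in Spry2, 0.50, was 0.31 without quetiapine replicate 3. At 48 hours the picture was similar. The unblocked fit called none of the 7, with 5 at an unadjusted p under 0.05 and 1.63% of probe sets called, and the block called 5 higher with quetiapine, Dusp6 by 0.58, Spry1 by 0.55, Spry4 by 0.36, Etv5 by 0.35 and Etv4 by 0.32, against 9.76%. Another Dusp6 probe set, 1382778_at, was called without the block too (adjusted p = 0.0211). The difference in Spry4 was 0.23 without quetiapine replicate 1, and that in Etv5 was 0.22 without T3 replicate 2 and 0.19 without quetiapine replicate 3. Spry2 was higher by 0.24 (adjusted p = 0.0595 under the block). These differences share the T3 arrays with the comparison of T3 and control.

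**Figure D4:**
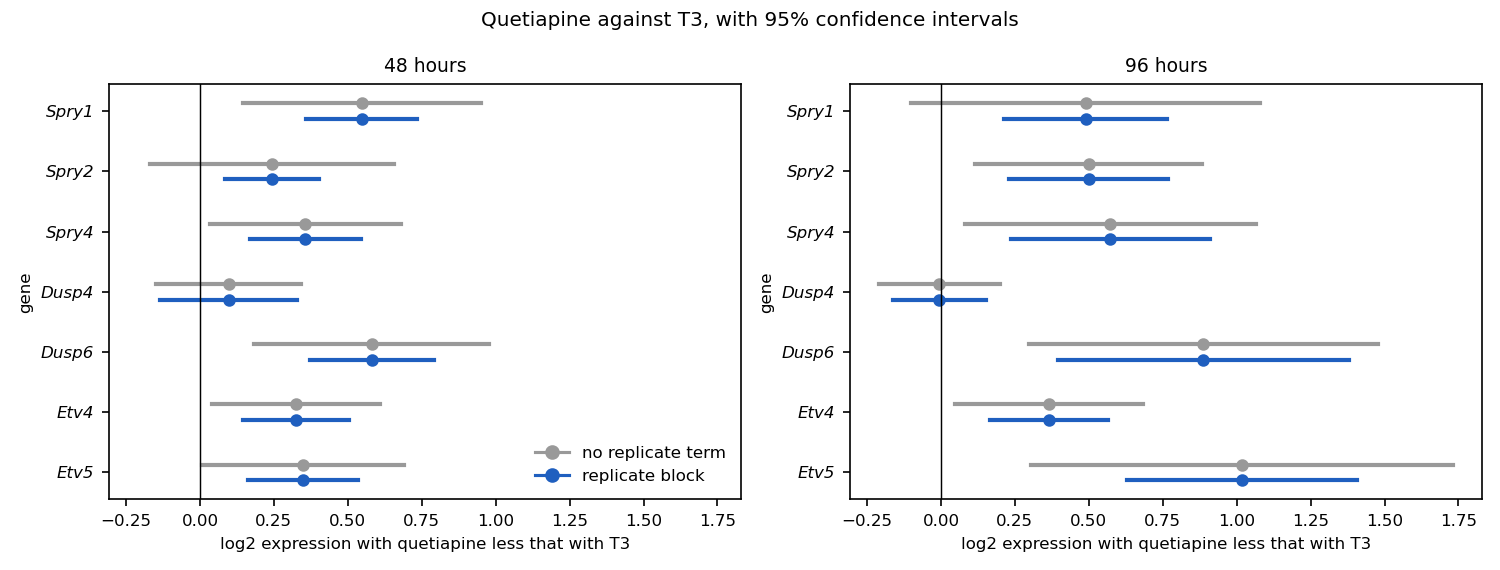
Log2 expression with quetiapine less that with T3 (horizontal axis, with 95% confidence intervals) for each gene at 48 and 96 hours, without a replicate term in grey and with the replicate block in blue. The estimates are the same in both fits and the intervals narrower with the block; at 96 hours 6 genes lie between 0.37 and 1.02 and Dusp4 at -0.01.

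Cell type markers moved along with these comparisons. The mean level of 7 precursor markers at 96 hours was 10.7 in control and 10.2, 10.5 and 10.1 with T3, quetiapine and both compounds. Between quetiapine and T3 the unblocked fit called none of them, against 2.63% of all probe sets. Under the block 3 of them were called higher with quetiapine than with T3 and none lower, against 11.7%. The astrocyte list stood at 11.5, 11.3, 10.8 and 10.6 in the same order, so it was lower in the cultures that received quetiapine. The myelin list rose from 10.9 in control to 12.4, 12.2 and 12.9. The myelin gene Mbp rose with each treatment, by 0.32 for T3, 0.35 for quetiapine and 0.39 for both (adjusted p = 0.0115, 0.0115 and 0.00123), and did not differ by a call between quetiapine and T3 (0.03, 95% confidence interval from -0.12 to 0.17). Its probe set was very bright, with a mean of 13.9 in control and 14.3 with the combination at 96 hours. Whether its signal was near a ceiling that would shrink such changes was not tested. The difference between the 3' and 5' actin probe sets, a measure of RNA integrity, was 0.658 in control and 0.710, 0.661 and 0.738 with T3, quetiapine and both compounds at 96 hours. The same measure for GAPDH was -0.084 in control and -0.048, -0.089 and -0.111 in that order. The combination was thus highest by actin and lowest by GAPDH. The part of cell makeup and RNA integrity in the changes of the ERK feedback genes was not tested.

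Adding quetiapine to T3 gave no called difference from T3 alone in these genes. Between the combination and T3 no gene was called in either fit at 48 or at 96 hours, and none had an unadjusted p under 0.05 in the unblocked fit. The background was 0.0193% of probe sets at 48 hours and 1.91% at 96 hours, and 1.04% and 12% under the block. The largest differences at 96 hours were -0.38 for Etv5, with a 95% confidence interval from -1.09 to 0.34, and -0.18 for Spry1, from -0.77 to 0.41. A fall of 2-fold in Etv5 thus lies within its interval. The Etv5 difference was 0.06 without combination replicate 2.

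Against quetiapine alone, the combination had 1 gene of 7 called at 96 hours. Etv5 fell by 1.39 ± 0.32, or 2.63-fold (adjusted p = 0.0271), where 7.41% of probe sets were called. That call was lost without quetiapine replicate 1, quetiapine replicate 3 or combination replicate 2, with adjusted p of up to 0.0967. With the block 6 genes fell, against 19.6% of probe sets: the changes beside that of Etv5 were -0.95 for Dusp6, -0.70 for Spry4, -0.67 for Spry1, -0.63 for Spry2 and -0.34 for Etv4. At 48 hours limma called none between the combination and quetiapine, with 2 at an unadjusted p under 0.05 and 0.947% of probe sets called, and the block called Etv5, Spry1 and Spry4 lower, against 7.91%. The difference in Spry4, -0.31, was -0.19 without quetiapine replicate 1.

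The interaction asks whether the change with both compounds differs from the sum of the single changes. It was not called for any of the 7 genes at 48 or 96 hours in either fit, and none had an unadjusted p under 0.05. Hardly any probe set was called anywhere: 0% at 48 hours in both fits, and 0.0322% at 96 hours, or 0.242% under the block. At 96 hours the estimate was below 0 for all 7 genes, from -0.09 for Etv4 to -0.42 for Dusp6, but for none of them had the 3 replicates the same sign. Over all genes 45.0% had an estimate below 0. The 7 estimates come from the same arrays and are not independent of one another. The intervals were wide, from -1.26 to 0.41 for Dusp6 and from -1.12 to 0.90 for Etv5.

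Between 48 and 96 hours all 7 genes had a lower mean in control and in quetiapine cultures, and 6 of 7 in T3 and combination cultures, the exception being Dusp4. Over all genes 52.2%, 53.6%, 53.8% and 53.0% were lower in control, quetiapine, T3 and combination cultures. The differences of Dusp4 in control and quetiapine cultures were only -0.05 and -0.02, and their sign changed when certain single arrays were left out. In control, limma called none, with 1 at an unadjusted p under 0.05, against 0.0226% of probe sets, and none was called under the block (3.21%). In quetiapine cultures none was called, with 0 at an unadjusted p under 0.05, against 2.65%, and under the block Spry1 fell by 0.51, against 11.3%. The median difference over the 7 genes was -0.32 in control and -0.28 in quetiapine cultures.

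In T3 cultures Etv5 fell by 0.96 ± 0.27 between the times (adjusted p = 0.0406), against 6.32% of probe sets called. This call was lost without any one of 6 arrays, all 3 T3 arrays at 48 hours, T3 replicates 2 and 3 at 96 hours and control replicate 2 at 48 hours, with adjusted p of up to 0.198. Under the block Spry1, Spry2, Spry4, Dusp6, Etv4 and Etv5 all fell, with changes from -0.29 for Etv4 to -0.96 for Etv5, against 19.1%. The change in Spry2, -0.38, was -0.24 without T3 replicate 3 at 48 hours.

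In combination cultures Dusp6 fell by 1.13 ± 0.24, or 2.19-fold (adjusted p = 0.00209), the largest change of the 7 genes. Etv5 fell by 1.07 ± 0.27 (adjusted p = 0.00680) and Spry4 fell by 0.67 ± 0.20 (adjusted p = 0.0197), which makes 3 genes of 7 against 22.2% of probe sets called. The calls for Dusp6 and Etv5 held without any one array, although without combination replicate 2 at 96 hours the change in Etv5 was -0.64 (adjusted p = 0.0488), whereas that for Spry4 was lost without combination replicates 1 or 3 at 48 hours or replicates 2 or 3 at 96 hours, with adjusted p of up to 0.122. Under the block 6 genes fell, with Dusp4 the exception, against 32.4% of probe sets. Among them the change in Spry2, -0.53, was -0.35 and that in Etv4, -0.38, was -0.25 without combination replicate 3 at 48 hours. In those 6 genes the values at 48 and 96 hours did not overlap, as for 35.3% of all probe sets.

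Whether the change against control differed between the times was tested in the fit over all 24 arrays. For T3 and for quetiapine no gene was called in either fit, and none had an unadjusted p under 0.05, against 0.0483% and 0.106% of probe sets, and 0.954% and 1.05% under the block. For the combination the unblocked fit called none, with 1 at an unadjusted p under 0.05 and 6.42% of probe sets called, and the block called Dusp6 and Etv5, against 17.5%. Dusp6 changed by 0.21 with the combination at 48 hours and by -0.60 at 96 hours, a difference of -0.81 (adjusted p = 0.183, and 0.0360 with the block). The second Dusp6 probe set gave -0.79, which the block did not call (adjusted p = 0.0805). For Etv5 the difference was -0.75 (adjusted p = 0.288, and 0.0436 with the block), and it was -0.31 without combination replicate 2 at 96 hours.

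Upstream of the relay, 23 of 24 listed growth factor ligands and receptors were measured. In the unblocked fit 3 rose and 7 fell with the combination at 96 hours. With T3 2 rose and 2 fell, and with quetiapine 2 rose and 3 fell. Of all probe sets 29.2%, 11.7% and 5.89% were called in these. Under the block 3 rose and 11 fell with the combination, 3 rose and 8 fell with T3, and 3 rose and 5 fell with quetiapine. The shares of all probe sets called there were 40.6%, 24.6% and 17.2%. Erbb3, a neuregulin receptor, rose with each treatment at 96 hours, by 1.17, 0.88 and 1.81 with T3, quetiapine and the combination. The ligand gene Pdgfc fell by 0.79 with T3 and fell by 0.62 with quetiapine. Egfr, the epidermal growth factor receptor, fell by 2.62 ± 0.62 with the combination (adjusted p = 0.00853), and Pdgfrb fell by 1.44. The neurotrophin receptor Ntrk2 fell by 0.91 with quetiapine at 96 hours and fell by 0.75 with the combination at 48 hours. At 48 hours Erbb3 rose with T3 by 0.77 and with the combination by 1.22, Met, the hepatocyte growth factor receptor, rose with T3 by 0.45, Pdgfa rose with the combination by 0.75, and Pdgfc fell by 0.49 with T3.

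The receptors best known in precursors moved apart from one another. At 48 hours Pdgfra fell by 0.70 with the combination (adjusted p = 0.0130), and its changes at 96 hours were -0.67, -0.43 and -0.73 with T3, quetiapine and both, called under the replicate block alone (adjusted p = 0.00218, 0.0284 and 0.000574). Among the receptors for fibroblast growth factors, Fgfr1 fell by 0.50 with quetiapine and fell by 0.56 with the combination at 96 hours, whereas Fgfr2 rose with T3 by 0.82 and with the combination by 1.10. Fgfr3, which is also an astrocyte marker, changed by -0.41 with T3 and by -0.36 with the combination, called under the block alone (adjusted p = 0.0266 and 0.0298). Between quetiapine and T3 at 96 hours the unblocked fit called none of Pdgfra, Fgfr1, Fgfr2, Fgfr3 and Egfr, and the block called Egfr higher with quetiapine by 0.86 (adjusted p = 0.00922).

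In the relay from adaptors to ERK, 20 of 27 listed genes were measured. None was called against control at 48 hours in the unblocked fit. At 96 hours in that fit 2 rose and none fell with T3, and 3 rose and none fell with quetiapine. With the combination 4 rose and 2 fell. Of all probe sets 11.7%, 5.89% and 29.2% were called in these. The unblocked count for T3 was thus below the background, and that for the combination was about equal to it. Under the block 3 rose and 2 fell with T3, 3 rose and 2 fell with quetiapine, and 4 rose and 2 fell with both. The shares of all probe sets called there were 24.6%, 17.2% and 40.6%. Map2k1, which encodes the kinase MEK1 that activates ERK, rose by 0.51, 0.59 and 1.21 with T3, quetiapine and both compounds. The adaptor gene Gab1 rose by 0.37, 0.53 and 0.60 in the same order. Frs3, an adaptor of fibroblast growth factor receptors, rose with quetiapine by 0.49, and the scaffold gene Ksr1 fell by 0.79 with the combination.

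Other MAP kinase phosphatases and feedback inhibitors mostly rose where they were called at 96 hours. Of 18 listed, 16 were measured, and at that time 4 rose with T3, 3 with quetiapine and 7 with both, while none fell without a replicate term. The shares of all probe sets called in either direction were 11.7%, 5.89% and 29.2%. Under the block 5 rose and none fell with T3, 5 rose and 1 fell with quetiapine, and 7 rose and 1 fell with both. The shares of all probe sets called there were 24.6%, 17.2% and 40.6%. Dusp10, whose product favours the stress kinases p38 and JNK, rose by 2.47 ± 0.55 with T3 (adjusted p = 0.0149) and by 3.07 ± 0.55 with the combination (adjusted p = 0.00162). Dusp1, an immediate early phosphatase gene, rose by 2.97 ± 0.60 with the combination, and Dusp3 rose by 0.92, 0.95 and 1.23 with T3, quetiapine and the combination. Dusp7, a cytoplasmic ERK phosphatase of the same subfamily as Dusp6, rose with quetiapine by 0.70 at 96 hours and with the combination by 0.69 at 48 hours. Dusp8 rose with quetiapine by 0.62, and Errfi1, an inhibitor of the epidermal growth factor receptor, with T3 by 0.52. The median change over the 16 genes with the combination at 96 hours was 0.20, where that over the 7 ERK feedback genes was -0.60.

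**Figure D5:**
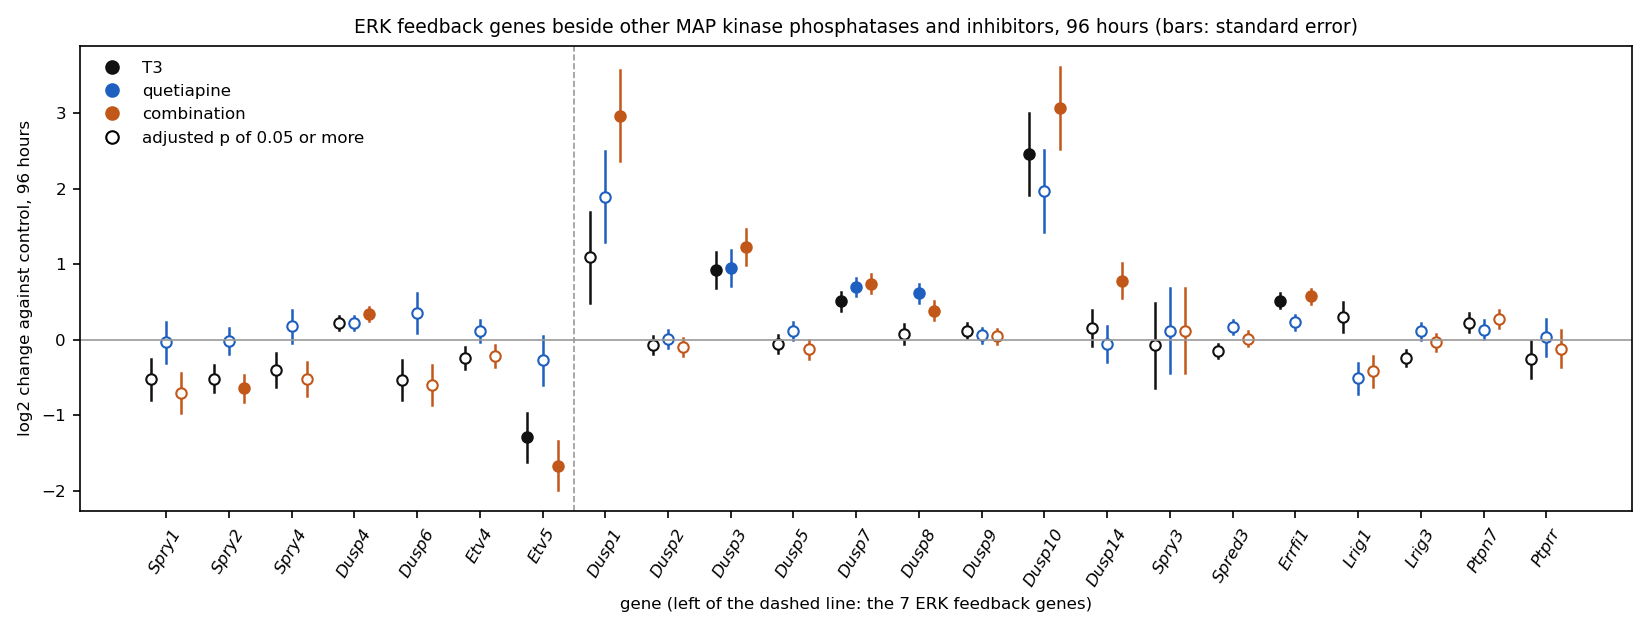
Log2 change against control at 96 hours (vertical axis, with standard error bars) for the 7 ERK feedback genes, left of the dashed line, and for 16 other MAP kinase phosphatases and feedback inhibitors; filled points have an adjusted p under 0.05 in the fit without a replicate term. With the combination Etv5 lies at -1.67 while Dusp1 lies at 2.97 and Dusp10 at 3.07.

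All 17 listed nuclear effectors and targets of ERK were measured. With the combination at 96 hours 3 rose and 5 fell in the unblocked fit. With T3 1 rose and 1 fell, and with quetiapine none was called. All probe sets were called at 29.2%, 11.7% and 5.89% in these. Under the block 4 rose and 7 fell with the combination, 3 rose and 5 fell with T3, and 4 fell with quetiapine. The shares of all probe sets called there were 40.6%, 24.6% and 17.2%. Fos, an immediate early gene, rose with T3 by 1.63 at 48 hours and 1.96 at 96 hours and with the combination by 1.62 and 2.38. Elk3, an ETS factor, fell by 1.08 with T3 and fell by 1.82 with the combination at 96 hours. The changes of Ets1 with the combination, both called, were -1.07 at 48 hours and -1.37 at 96 hours. Etv1, the third member of the subfamily of Etv4 and Etv5, fell by 0.84 ± 0.15 with the combination at 48 hours (adjusted p = 0.0123). The pathway lists were read against control arrays shared with the ERK feedback genes.

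For each gene the non-member with the most similar pattern over the 24 arrays was sought among 10099 genes with a mean of at least 6. The Pearson correlations are descriptions, since arrays share groups and replicates. Etv5 ran most like Uhrf1, a factor that maintains DNA methylation in dividing cells, at r = 0.972. Uhrf1 fell in mean from 9.53 in control at 48 hours to 6.77 in the combination at 96 hours. Spry1 was most like Pgrmc2 (0.938), Spry2 like the connexin gene Gjc1 (0.933), Spry4 like Chtf18 (0.922), Etv4 like Dctpp1 (0.908), Dusp6 like Anp32b (0.893) and Dusp4 like Imp3 (0.855).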

How the data were processed

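RNA of rat OPC cultures from 8 groups of treatment and time was hybridised to 24 Affymetrix arrays, 3 a group. The authors deposited log2 expression values made by RMA (the sources used here name no version). They were used as deposited. The array holds 31099 probe sets. After removal of 57 controls, 31042 were tested: the platform annotation gives 1 symbol to 20826, several to 436 and none to 9780. Group means were compared by limma's moderated test (limma 3.58.1, R 4.3.3), over the 12 arrays of a time for comparisons within it and over all 24 arrays across times, with no replicate term. P values were two-sided and adjusted by the method of Benjamini and Hochberg over all probe sets. The script was tested on simulated data. In all 21 comparisons were made.

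The deposited design states that each of the 3 biological replicates gave a sample of every group, which pairs the arrays. Deviations from the group means of arrays with the same number correlated at 0.430 to 0.777 at 48 hours and 0.309 to 0.690 at 96 hours, and those with different numbers at -0.681 to 0.243. The fit with the replicate as a block was therefore given as well.

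The members and lists were chosen with earlier results of these data known. Genes named beside the members were up to 3 called genes with the largest change per list and comparison against control, a fixed set of receptors (Pdgfra, Fgfr1, Fgfr2, Fgfr3, Egfr), Mbp, and for each member the gene most like it. Pgrmc2, Gjc1, Chtf18, Dctpp1, Anp32b, Imp3 and Uhrf1 came from this last rule, and Gfap was added as a check of the cells. Some genes that the rule covers are not reported here. Alternatives were the replicate block, centring of the arrays on their medians, leaving out probe sets with a mean under 5, the second probe set of a gene, a fold limit of 1.5, 1 fit over all 24 arrays and leaving out each array.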

Additional observations from a re-analysis of the deposited data

Results flagged for a closer look

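The change in Dusp6 with the combination was lower at 96 than at 48 hours by a difference of -0.808, which passed the test of the difference itself only with the replicate as a block (limma adjusted p = 0.0360, against 0.183 without it). The same was found for Etv5, with a difference of -0.750 (adjusted p = 0.0436 with the block, against 0.288 without it). Both differences were below 0 in 3 of 3 replicates. Without combination replicate 2 at 96 hours the differences were -0.72 for Dusp6 and -0.31 for Etv5. The second probe set gave a difference of -0.79 for Dusp6, not called with the block (adjusted p = 0.0805), and of 0.02 for Etv5. The third Dusp6 probe set, 1382778_at, had means of 7.13 in control and 7.47 with the combination at 48 hours. At 96 hours its means were 6.71 and 6.31.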

How the results depend on the processing

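No call of the 7 genes changed direction under any alternative run. With the replicate as a block (paired fit) the number of genes called was 4 for T3 against control at 48 hours and 4 at 96 hours, 1 for quetiapine at 48 hours, 3 and 5 for the combination at 48 and 96 hours, 5 and 6 for quetiapine against T3, 3 and 6 for the combination against quetiapine, 6, 1 and 6 for 96 against 48 hours in T3, quetiapine and combination cultures, and 2 for the change with the combination at 96 less at 48 hours. It changed no count of the other 8 comparisons. With the second probe set the count was 0 for the combination against control at 48 hours, 0 for T3 against control at 96 hours, 2 for the combination against quetiapine at 96 hours and 2 for T3 cultures over time. The 1 fit over all 24 arrays gave 0 for the combination against control at 48 hours, 2 for quetiapine against T3 and 4 for the combination against quetiapine at 96 hours. Leaving out dim probe sets gave 3 for the combination against quetiapine at 96 hours and 5 for combination cultures over time. Leaving out 1 array at a time, the count ranged from 0 to 2 for T3 against control at 96 hours, 0 to 1 for quetiapine against control, 2 to 5 for the combination against control, 0 to 1 for quetiapine against T3, 0 to 3 for the combination against quetiapine, 0 to 2 for T3 cultures over time and 2 to 5 for combination cultures over time. Centring the arrays, which shifted changes by at most 0.0457, and the fold limit moved no count by over 1.5 times, but the fold limit ended the call of Dusp4 with the combination at 96 hours. With 3 arrays per group, a gene that was not called was not shown to be unchanged.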
